A study of Mus musculus with 2 samples.

Results

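The interferon genes examined here are the ligands and receptors of the interferon system, the STAT and interferon regulatory factor (IRF) transcription factors, and the families of interferon-inducible effector genes. They were taken by gene symbol alone, from probe sets annotated to a single gene. The symbol had to begin with Ifn, Stat and a digit, Irf and a digit, Oas, Ifi with a digit or a t, Gbp and a digit, or Irgm, or had to be Mx1, Mx2, Rsad2, Iigp1, Igtp or Bst2. By symbol this also took in 3 IRF2-binding proteins, Irf2bp1, Irf2bp2 and Irf2bpl, which belong to none of these classes but are counted among the interferon genes. Isg15 and Tgtp1 were also sought, but had no probe set of their own here. The search returned 117 probe sets and 81 genes, of 18193 genes named on the array. Expression was profiled in epididymal white adipose tissue, a visceral fat pad, of male C57BL/6 mice. One array came from an animal kept on normal chow and 1 from an animal given 7 weeks of high-fat diet. All animals ate regular food freely until diets began at 9 weeks of age. The genotype is that of the strain in both, and no other treatment is labelled. With 1 array per diet there was no spread between animals and no test, and "higher" and "lower" describe these 2 samples.

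Interferons are secreted cytokines of antiviral and immune defence. Type I interferons (the alpha family and beta) signal through the receptor chains Ifnar1 and Ifnar2, and type II interferon (gamma) through Ifngr1 and Ifngr2. Janus kinases at these receptors phosphorylate STAT proteins. STAT dimers then bind the GAS element, and a complex of STAT proteins with IRF9 binds the interferon-stimulated response element (ISRE). In fat, adipocytes, macrophages, lymphocytes and vascular cells can all carry interferon receptors and answer to interferon, so a bulk sample mixes the responses of all of them. Fewer cells of a type and less RNA per cell cannot be told apart in such a sample.

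Values are the deposited linear intensities. Weak signal was bounded by a floor at the 40th percentile of each array, which was 28.6 for chow and 27.9 for the high-fat diet. Genes count as measured where a probe set came up to the floor of either array, and values below it were set to it before taking log2. Differences are high-fat diet minus chow, and one that involves a raised value is a bound, written "at least". Of the 81 genes 65 were measured, 56 of them on both arrays, 8 with high-fat diet alone and 1 with chow alone. The tissue labels were checked on fixed markers. The adipocyte genes Adipoq (8372.1 and 8718.4) and Fabp4 (10726.6 and 11559.7) were bright on both arrays, while Defb41 and Lcn9 of the adjoining epididymis were below both floors. Of that list Lcn8 (55.1 and 32.9), Rnase10 (75.7 and 64.2) and Adam7 (13.9 and 38.4) gave weak values. Values given in pairs are chow first and high-fat diet second throughout. As a measure of probe error, the differences of probe sets of the same gene had a pooled SD of 0.37 log2 units for genes of mean intensity under 100, 0.29 between 100 and 400 and 0.20 above 400. This SD holds no error between animals.

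As a group the interferon genes lay where genes at large lay. The median difference of the 65 measured genes was -0.02, the same to 2 decimals as the median of all 14066 measured genes. Their interquartile range ran from -0.26 to 0.26, against -0.24 to 0.20 for all measured genes, and 81.5% lay within 0.5 log2 units, against 82.8%. By direction 30 were higher, 34 lower and 1 equal. At 1.5-fold or more, 5 of 65 were higher (7.69%) and 5 were lower (7.69%), beside a background of 5.82% and 6.4% of all measured genes. At 2-fold or more 1 gene was higher and 0 were lower, beside 1.17% and 1.35% of all genes. These shares lie near the background. Without the ligands and the IRF2-binding genes, 2 of 57 were 1.5-fold or more higher (3.51%) and 4 lower (7.02%). When the arrays were centred on reference genes the split at 1.5-fold was 3 higher and 7 lower, beside 4.53% and 8.37% of all measured genes in that setting.

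Of the genes 1.5-fold or more different, 9 of 10 had a mean intensity under 100, the exception being Irf2bpl. In that range 5 of 30 members were higher, beside 8.18% of all measured genes so weak, and 4 of 30 were lower, beside 9.54%. Among the 5 higher ones, 3 (Ifna2, Ifnb1 and Oas3) are bounds with chow below its floor, while the 5 lower ones cleared both floors. Only Oas1e, Ifitm1, Oasl2, Irf2bpl and, as a bound, Ifnb1 differed by 2 probe SDs or more for their intensity. The share of all measured genes past that limit was not counted, so these 5 are not shown to stand out. The 12 members of mean intensity above 400 all lay within 0.5 log2 units, with a median of -0.09 against 0.03 for all measured genes that bright.

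**Figure D1:**
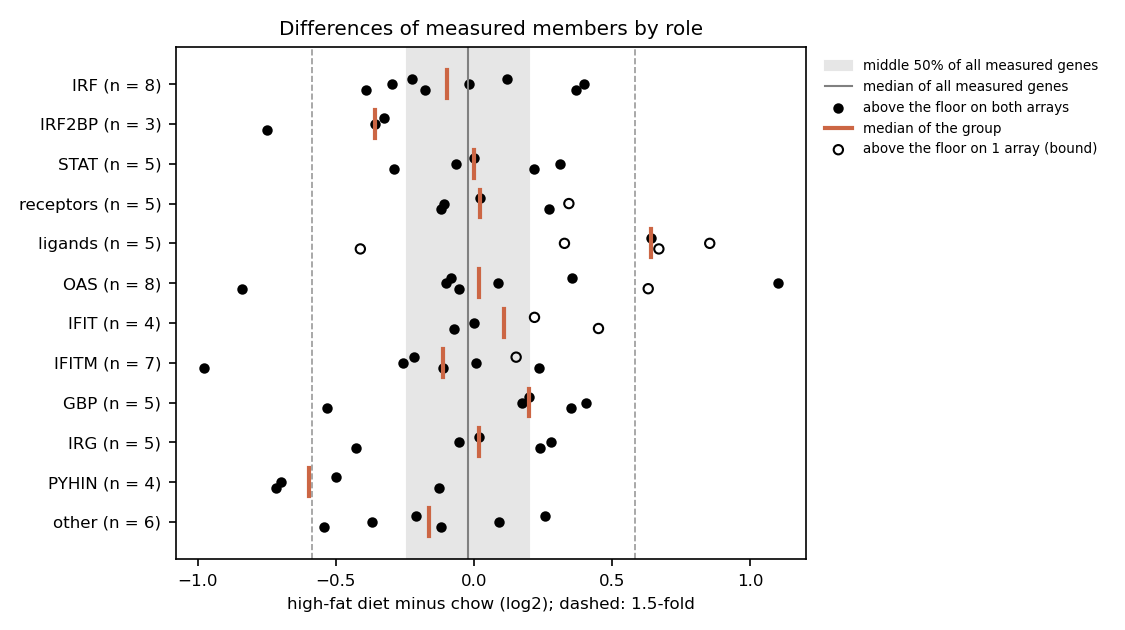
High-fat diet minus chow differences (log2, horizontal axis) of the 65 measured interferon genes, grouped by role, with filled points for genes above the floor on both arrays and open points for bounds. The orange bars are group medians, the grey band spans the interquartile range of all 14066 measured genes (-0.24 to 0.20) and dashed lines mark 1.5-fold. The PYHIN and IRF2-binding groups lie wholly to the left of 0, and most open points lie to the right.

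Proximal promoters were read as sequence, which the choice by symbol did not use directly. The symbols mark families of interferon-inducible genes, so more ISRE and GAS matches than at large could follow from the choice itself. RefSeq promoter windows (GRCm38.p6, 250 bases before to 50 bases after the transcription start) were at hand for 69 of the 81 genes. The ISRE core was searched as GAAANNGAAA on both strands, and overlapping matches were counted separately. It was present in 31 of the 69 genes (44.9%), against 3.99% of all 27025 genes with a window. The GAS core, TTCNNNGAA, which reads the same on both strands, was present in 21 of 69 (30.4%), against 9.55% of all genes. Every GBP gene with a window held an ISRE match (4 of 4), as did 4 of 5 IFIT genes, 7 of 10 ligands, 3 of 4 immunity-related GTPases and 3 of 5 PYHIN genes. By contrast 1 of 8 IRF genes, 0 of 5 receptors and 0 of 3 IRF2-binding genes did. Close paralogs were counted as separate genes. The matches of Ifit1 and Ifit1bl2 are the same bases read on opposite strands, and both genes were counted. A match is a run of letters and was not tested for binding.

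Several matches are shown with 10 bases on each side, 5′ to 3′ on the gene's strand and with the ISRE core in capitals, to let the elements be set beside the values of their genes. The first 3 belong to neighbouring PYHIN genes and share the core GAAATCGAAA in all 3 cases. The next pair, from immunity-related GTPases, is identical at 29 of 30 bases. The alpha interferons Ifna1 and Ifna5 are identical at 30 of 30. The last 2 are the opposite-strand elements of guanylate-binding protein genes. In Gbp3 another match overlaps the capitals shown and runs into the lower-case bases after them.
Ifi203 (chr1:173942508-173942537, minus strand): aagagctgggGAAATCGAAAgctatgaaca
Ifi207 (chr1:173741831-173741860, minus strand): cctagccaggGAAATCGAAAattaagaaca
Ifi213 (chr1:173599326-173599355, minus strand): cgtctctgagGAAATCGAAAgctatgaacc
Igtp (chr11:58199512-58199541, plus strand): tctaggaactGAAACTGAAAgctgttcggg
Irgm2 (chr11:58214903-58214932, plus strand): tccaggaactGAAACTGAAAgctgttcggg
Ifna1 (chr4:88849912-88849941, plus strand): atgagttaaaGAAAGTGAAAagacaagtgg
Ifna5 (chr4:88835350-88835379, plus strand): atgagttaaaGAAAGTGAAAagacaagtgg
Gbp2 (chr3:142620594-142620623, plus strand): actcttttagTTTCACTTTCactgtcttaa
Gbp3 (chr3:142559989-142560018, plus strand): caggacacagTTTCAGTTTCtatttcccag

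Igtp differed by -0.43 and Irgm2 by 0.24 with nearly the same 30 bases, and Gbp2, with another core and flanks than Gbp3, differed by 0.18 and Gbp3 by -0.53. None of these 4 differences reached 2 probe SDs. Ifna1 differed by 0.64, and Ifna5 was not measured. Among the PYHIN trio, Ifi207 and Ifi213 differed by -0.72 and -0.70 and Ifi203 by -0.13. Across all measured members with a window, the 24 with an ISRE match had a median difference of 0.09, with 12 higher, 11 lower and 1 equal, but 4 of them are bounds. The 34 without a match had a median of -0.11, with 13 higher and 21 lower. Over genes that cleared both floors the medians were -0.06 with a match (8 higher, 11 lower) and -0.12 without (9 higher, 20 lower), so the sign of the first rests on the bounds. For the GAS core the medians were -0.02 over 17 genes with a match and -0.07 over 41 without, and -0.12 and -0.11 over those that cleared both floors.

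**Figure D2:**
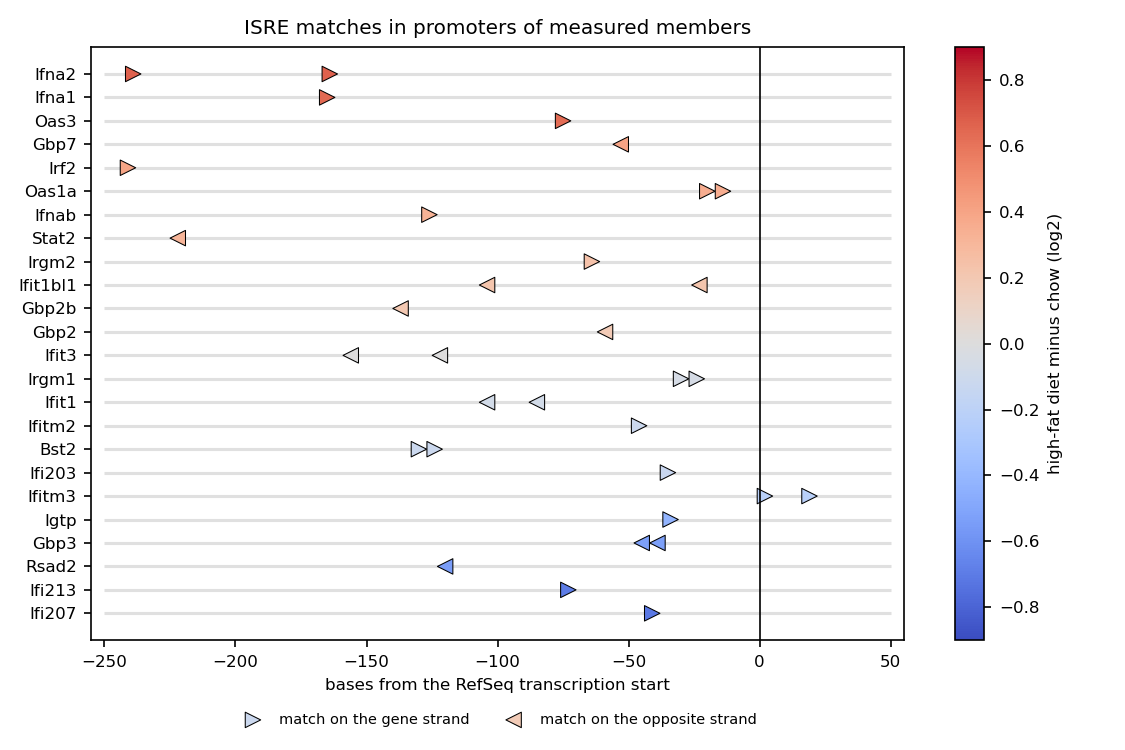
Position of each ISRE match (bases from the RefSeq transcription start, horizontal axis) in the 24 measured interferon genes with a match, ordered by their diet difference. Right-pointing triangles are matches on the gene's strand and left-pointing ones on the opposite strand, coloured by the high-fat diet minus chow difference (log2). Red and blue rows both carry matches close to the start, from Oas1a 20 bases before it to Ifi207 41 bases before it.

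In probe sets of their own, which leave out brighter ones shared by several alpha genes, the interferon ligands were weak. Of 10 ligand genes 5 were under the floor on both, including Ifng, which encodes type II interferon, at 1.1 and 8.7. Ifnb1, the single interferon beta gene, was at 9.4 with chow and 51.7 with high-fat diet, at least 1.81-fold higher. Ifna2 was at 25.4 and 45.5, at least 1.59-fold higher. Ifna1, the only ligand to clear both floors, was read at 34.3 and 53.5, or 1.56-fold higher. Ifnab was at least 1.26-fold higher, from 24.8 to 35.9, and Ifnz, of the zeta family, at least 1.33-fold lower, from 37.1 to 21.2. The alpha genes are close paralogs, and short probes can read several of them. No ligand could be measured with the floor at the 60th percentile. Ifnb1 was 1.5-fold or more higher in the 8 alternatives that measured it, all of which re-read the same probe set.

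None of the receptors reached 1.5-fold. Ifnar1, a type I receptor chain, was at 169.3 and 155.7, and its weaker probe set at 52.4 and, below the floor, 24.7. Ifnar2, the other type I chain, was at 454.2 and 461.5 in its brightest probe set, while the weaker ones were lower, from 77.2 to 69.4 and from 54.2 to 35.5. The sizes for both chains thus differed between probe sets. Ifngr1, the ligand-binding chain for interferon gamma, was at 786 and 728.5, a difference of -0.11. Ifngr2, its partner chain, was 1.21-fold higher, from 119.8 to 144.5, and its other probe set was also higher, from 96.4 to 124.5. Ifnlr1, the receptor chain of type III interferon, was at 21.5 and 36.3, at least 1.27-fold higher.

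Among the STAT factors 5 of 6 were measured and none reached 1.5-fold. Stat2, the partner of IRF9 in the type I response, was at 59.4 and 73.8, a difference of 0.31, although its weaker probe set read 28.7 and 14.2, the second value below the floor. Stat3, which mediates the response to interleukin 6 and leptin, was at 504.4 and 482 and, in the next probe set, at 388.6 and 367.5. Its weaker ones were higher, at 56.5 and 73.5 and at 27.7 and 34.1, so Stat3 had 2 higher and 2 lower. Stat5a was lower in both probe sets, from 230.8 to 188.7 and from 113.8 to 82.7. Stat5b, which like Stat5a acts downstream of growth hormone, was at 166.2 and 166.1 in its brighter probe set and at 107.3 and 61 in the other. Stat6, the interleukin 4 factor, was higher in both, from 411.5 to 478.7 and from 156.2 to 193.1. Stat4, at 2.6 and 2.3, was not measured.

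All 8 IRF genes were measured on both arrays, with 5 lower and 3 higher, a median of -0.10 and none at 1.5-fold. Irf1, an early target of interferon gamma, was at 441.8 and 436.4. Irf3, a transducer of nucleic acid sensing that is made constitutively, was lower in 4 of 4 measured probe sets, from 530.1 to 431.4 in the brightest, from 78.6 to 68.4, from 74 to 70.4 and, ending below the floor, from 35.3 to 19. Irf7, the inducible amplifier of the type I response, was 1.31-fold lower, from 150.7 to 114.9. Irf9, the DNA-binding part of the ISRE complex, was at 79.8 and 68.4. Irf8, a factor of myeloid cells, was lower in both probe sets, at 143.7 and 127 in the brighter one. Irf2, which can repress interferon responses, was 1.32-fold higher, from 70.7 to 93.1. Irf5, of macrophage activation, was at 114.5 and 124.3. Irf4, a factor of lymphocytes and alternatively activated macrophages, was at 43.8 and 56.6 in one probe set and 41.1 and 40.4 in the other.

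The IRF2-binding proteins, transcriptional corepressors named for binding IRF2, were lower throughout. Irf2bpl was 1.68-fold lower, from 260.8 to 155.2, its other measured probe set went from 137.5 to 89.8, and its remaining one was below both floors. Irf2bp2 was lower in 4 of 4 probe sets, from 623.1 to 486.7, from 172.5 to 143.8, from 117.2 to 71 and from 65.5 to 46.1. Irf2bp1 went from 234 to 186.6, a difference of -0.33. All 7 measured probe sets of the 3 genes were thus lower. Irf2bpl was 1.5-fold or more lower in each of the 9 alternative settings.

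The oligoadenylate synthetases, which make the messenger that activates RNase L on sensing double-stranded RNA, held both the highest and one of the lowest differences. Oas1e was 2.14-fold higher, from 32.7 just above the floor to 70.1, the only interferon gene past 2-fold. With the floor at the 60th percentile, which lies above its chow value, the difference was bounded at 0.22 or more. A probe set shared by Oas1e and Oas1d was below both floors, at 23.4 and 17.5. Oas3 was at 16 and 44.3, at least 1.55-fold higher. Oas1a went from 151.5 to 193.6, 1.28-fold higher. Oas1b, Oas2, Oas1f and Oasl1 differed by 0.10 or less in either direction. Oasl2, an antiviral member with ubiquitin-like domains, was 1.79-fold lower, from 89.7 to 50.1, in its only probe set. It stayed 1.5-fold or more lower in all 8 alternatives that measured it, which re-read that same probe set. Oas1c and Oas1h were not measured. The Oas1 genes are close paralogs in one chromosomal cluster, and cross-reading of their probes was not tested.

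The promoters of 2 members of this family are given whole, since one was higher, by 1.28-fold, and the other lower, by 1.79-fold. The Oas1a difference was 1.23 probe SDs for its intensity. A link of motif and direction was not tested, and Ifi207, which was lower, also holds an ISRE match. In Oas1a a pair of overlapping ISRE cores, in capitals, starts 20 and 14 bases before the transcription start. The same window holds 1 GAS match, which is not marked. The Oasl2 window holds no match to either motif, which says only that these letters are not in this stretch.
Oas1a (chr5:120907476-120907775, minus strand): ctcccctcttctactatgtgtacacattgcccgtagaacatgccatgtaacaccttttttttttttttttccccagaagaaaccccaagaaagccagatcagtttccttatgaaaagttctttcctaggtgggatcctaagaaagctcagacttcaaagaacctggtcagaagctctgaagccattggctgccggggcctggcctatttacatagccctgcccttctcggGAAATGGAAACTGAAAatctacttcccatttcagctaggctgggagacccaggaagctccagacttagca
Oasl2 (chr5:114896684-114896983, plus strand): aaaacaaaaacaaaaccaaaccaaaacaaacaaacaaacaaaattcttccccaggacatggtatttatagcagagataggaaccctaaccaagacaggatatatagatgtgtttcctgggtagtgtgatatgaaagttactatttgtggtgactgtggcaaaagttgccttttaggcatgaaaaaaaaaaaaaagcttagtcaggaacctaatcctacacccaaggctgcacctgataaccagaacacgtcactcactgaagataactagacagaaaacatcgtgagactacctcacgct

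The IFIT genes, whose products bind viral RNA ends, did not differ where they were well measured. Ifit3 was at 136.7 on both arrays and Ifit1 at 77.7 and 74. Ifit2 was at 20.3 and 39.1, at least 1.37-fold higher, and Ifit1bl1 at 7 and 33.3, at least 1.16-fold higher. Rsad2, which encodes the antiviral enzyme viperin, was lower in 3 of 3 probe sets, from 206.2 to 141.6, from 93.6 to 78.5 and from 65.8 to 50.3, or 1.46-fold in the brightest. Mx1 and Mx2, dynamin-like antiviral GTPases, were not measured, reading 26.4 and 19.7 and 7.9 and 8.1. Bst2, encoding tetherin, which holds virus particles at the cell surface, was at 129.6 and 119.4.

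The IFITM genes encode small membrane proteins that hinder virus entry. Ifitm1 was 1.97-fold lower, from 93.8 to 47.7, the lowest difference among the 65 genes, and lower by 1.5-fold or more in 9 of 9 alternatives. It rests on 1 probe set, so the alternatives that vary the choice of probe set return the same value and add no support. Its neighbours Ifitm2 and Ifitm3 were at 1712.3 and 1583.3 and at 1922.4 and 1652.5, differences of -0.11 and -0.22. Ifitm6 differed by -0.26, from 118.9 to 99.6, while Ifitm5, known from bone, differed by 0.24, from 56.5 to 66.5. Ifitm7 was at 64.3 and 64.7, and Ifitm10 at 11.5 and 31.8, at least 1.11-fold higher.

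Guanylate-binding proteins, which coat vacuoles of intracellular pathogens and are typical targets of interferon gamma, were higher in 4 of 5 measured cases, with a median of 0.20. Gbp2 was higher in both probe sets, from 263.1 to 297.2 and from 207.7 to 219.3. Gbp2b was at 45.9 and 52.7. Gbp6 was at 82.2 and 104.8 in one probe set and 65 and 64.7 in the other. Gbp7 had 2 probe sets of opposite direction, one from 120.6 to 160 and the other from 182.9 to 83.6, the latter 2.19-fold lower. Gbp7 therefore has no settled direction, and its difference was -0.36 when both were averaged. Gbp3 was 1.44-fold lower, from 78.6 to 54.4, and Gbp8 was not measured.

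The immunity-related GTPases, partners of the guanylate-binding proteins in defence of the cell interior, had a median of 0.02 and none was 1.5-fold different. Igtp was 1.34-fold lower, from 224.3 to 166.9. Irgm1 was at 141.8 and 136.7 and Irgm2 at 105.3 and 124.2. Ifi47 was at 118.2 and 143.5. Iigp1 was at 321.3 and 325.7, with its other probe set at 82.8 and 70.8.

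PYHIN genes, a chromosome 1 cluster whose products include nuclear and cytosolic DNA sensors, were lower in all 4 measured cases, with a median of -0.60. Ifi207 was 1.64-fold lower, from 51.4 to 31.3, and Ifi213 1.62-fold lower, from 47.5 to 29.3, both ending just above the floor. Ifi209 was at 64.2 and 45.4 in one probe set, but the other read 23, below the floor, and 45, which leaves its direction unsettled. Ifi203 was at 94.2 and 86.2. Ifi204 and Ifi202b were not measured. None of the 4 differed by 2 probe SDs for its intensity.

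Among the remaining inducible genes, Ifi27l2a was at 4829.6 and 5140.9, a difference of 0.09. Ifi27, of the same mitochondrial and nuclear membrane family, was higher in both probe sets, from 2507.9 to 2998.7 and from 1864.9 to 2304.5. Ifi30, the thiol reductase of antigen processing in the lysosome, was 1.29-fold lower, from 253.1 to 196.1. A probe set shared by Ifi30 and Pik3r2 was at 62.4 and, below the floor, 24.1, a difference bounded at -1.16. Ifi35, a binding partner of Nmi, had 2 lower probe sets, at 469.4 and 406.4 and at 164.6 and 124.5, and 1 higher, at 130.9 and 153.2. Ifi44l and Ifi27l2b were not measured.

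**Figure D3:**
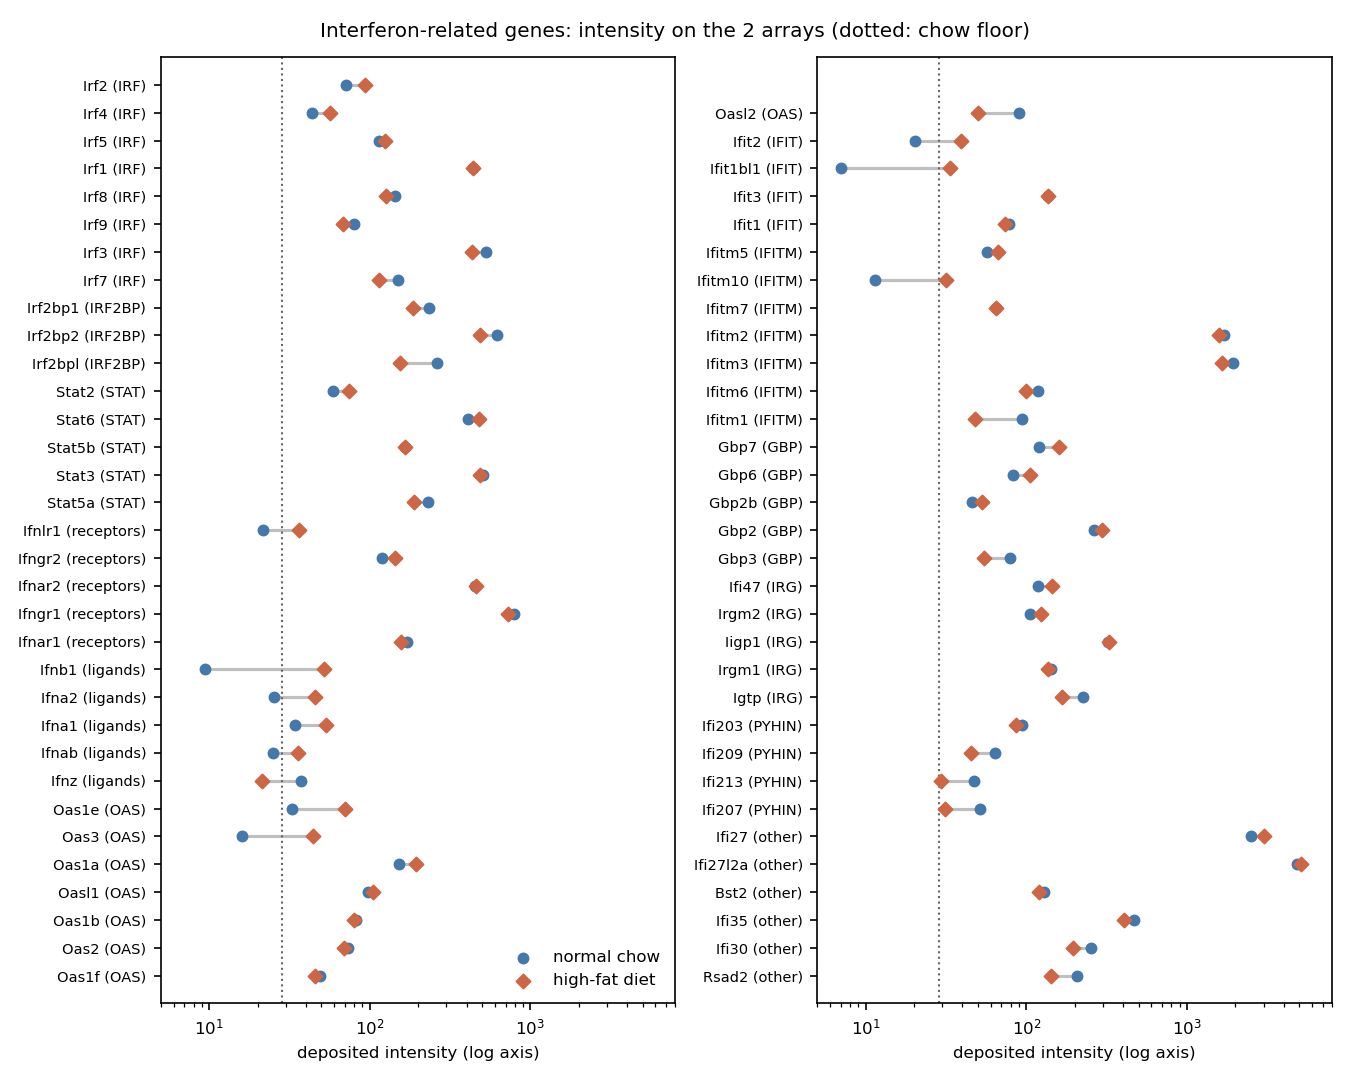
Deposited intensity (logarithmic horizontal axis) of the 65 measured interferon genes on normal chow (blue circles) and the high-fat diet (orange diamonds), each pair joined by a grey line, with the role in brackets. The dotted line is the chow floor of 28.6. Long lines sit mostly at low intensity, as for Ifnb1 (9.4 and 51.7), and bright genes such as Ifitm3 and Ifi27l2a have short ones.

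Agreement between probe sets sets a limit on single values. Of 22 genes with 2 or more measured probe sets, 13 had all of them on the same side. With probe sets that cleared both floors alone, 12 of 19 such genes agreed, beside 48.6% of 5196 genes in the whole table. Genes lower in each measured probe set were Irf2bp2, Irf2bpl, Irf3, Irf8, Rsad2, Stat5a, Stat5b and Ifnar1. Those higher in each were Gbp2, Ifi27, Ifngr2, Irf5 and Stat6. Stat5b and Irf5 count as agreeing although 1 probe set of each hardly differed, at 166.2 and 166.1 and at 111.1 and 111.4. Over the 82 interferon probe sets that cleared both floors, 52 were lower and 29 higher, 63.4% lower with a median of -0.09. Of 20947 such probe sets of all genes 52.4% were lower. Genes with several probe sets count more than once here. Counted by gene, 33 of the 56 members that cleared both floors were lower (58.9%), beside 52.9% of all such genes.

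**Figure D4:**
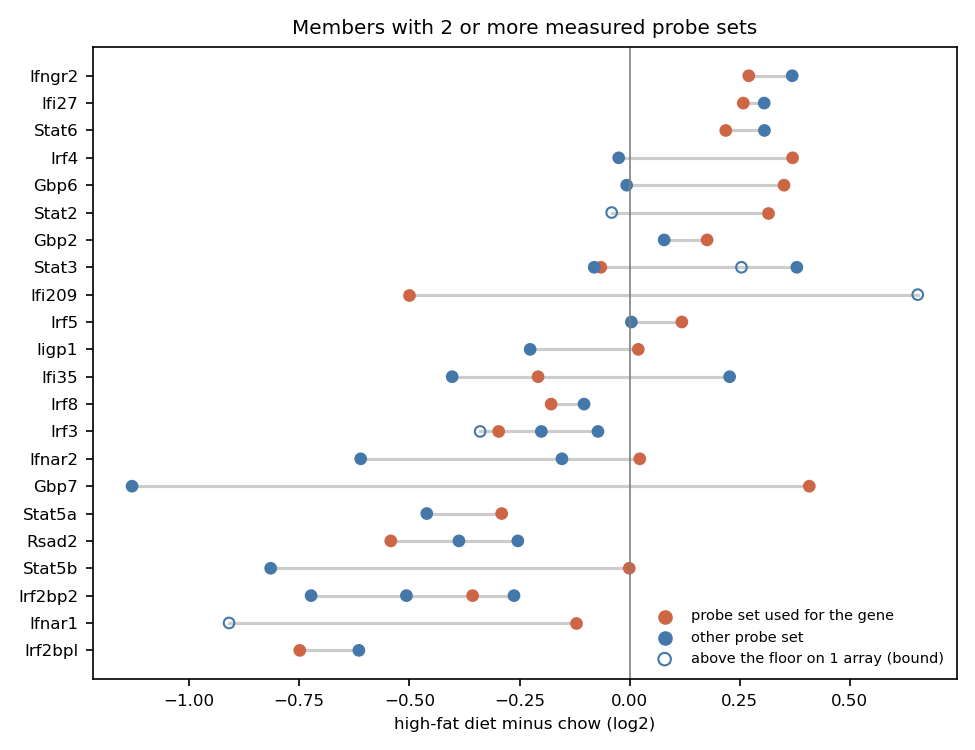
High-fat diet minus chow difference (log2) of each measured probe set for the 22 interferon genes with 2 or more, ordered by the mean of their probe sets. Orange points are the probe set used for the gene, blue points the others and open points bounds. Irf2bpl, Irf2bp2 and Rsad2 lie wholly below 0, and the points of Gbp7 and Ifi209 fall on both sides.

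Core genes of the 2 interferon types were set side by side. Of 16 genes typical of the type I response 12 were measured, with a median of -0.04, 5 higher, 6 lower and 1 equal. Of 15 genes typical of the type II response 10 were measured, with a median of 0.0009, 5 higher and 5 lower. At 1.5-fold, Oas3 was higher and Oasl2 lower in the first list and no gene in the second was different. No difference between the lists was tested.

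The other genes of the pathway, a list of 89 sensors, kinases, inhibitors and further interferon targets, had 77 measured members, with a median of -0.07, 47 lower and 30 higher. Beside a median of -0.02 and 52.9% lower for all measured genes, 61.0% of the list were lower. At 1.5-fold 5 were higher (6.49%) and 2 lower (2.60%), beside the 5.82% and 6.4% of all measured genes. The higher ones were Trim14, an adaptor of RNA sensing, from 156.3 to 288.6, Tmem140, from 210.3 to 364.5, Nmi, from 73.4 to 124.7, Casp4, the inflammatory caspase for lipopolysaccharide, from 34.1 to 57.6, and Cd274, encoding the checkpoint ligand PD-L1, from 76.6 to 118.4. The lower ones were Znfx1, an RNA helicase, from 253.2 to 163.2, and Tap2, a peptide transporter subunit, from 206.6 to 136.5. Trim14 and Tmem140 were 1.85-fold and 1.73-fold higher. All the genes named here, higher and lower, rest on 1 measured probe set each.

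Markers of cells that can carry interferon genes were read from the same arrays. Of 10 macrophage markers, all measured, 4 were higher and 6 lower, and their intensities summed to 7091.6 with chow and 6976.1 with high-fat diet. The macrophage sum is mostly Lyz2 and Csf1r. Cd14, Mertk, Cd163 and Mrc1 differed by -0.64, -0.58, -0.54 and -0.44. Cd68, Lyz2, Adgre1 and Csf1r differed by 0.22, 0.16, 0.07 and 0.07, and Itgam and Fcgr1 by -0.01 and -0.10. Of 6 T and NK cell markers measured, of 10, 3 were higher and 3 lower, with sums of 412.2 and 437.4, while Cd3d and Cd4 were under the floor. Plasmacytoid dendritic cell markers were 2 higher and 4 lower of 7, with sums of 727.6 and 667.4, and Siglech, their defining surface marker, was at 55.4 and, below the floor, 25.5. B cell markers were 1 higher and 3 lower of 5 (253.1 and 225.3), endothelial markers 5 higher and 1 lower of 6 (1766.4 and 1844.7), and conventional dendritic cell markers 2 higher and 3 lower of 6 (418.6 and 440.4). Mesothelial markers were lower in 4 of 5 cases (1180.5 and 756.1). Neutrophil markers were 2 higher and 2 lower of 6 (217.1 and 357.7), with S100a8 at 39.7 and 191.3 and its partner S100a9 at 32.9 and 3.5, and fibroblast and progenitor markers 4 higher and 1 lower of 6 (3045.2 and 4400.4). The part of these cells in the interferon values was not tested.

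**Figure D5:**
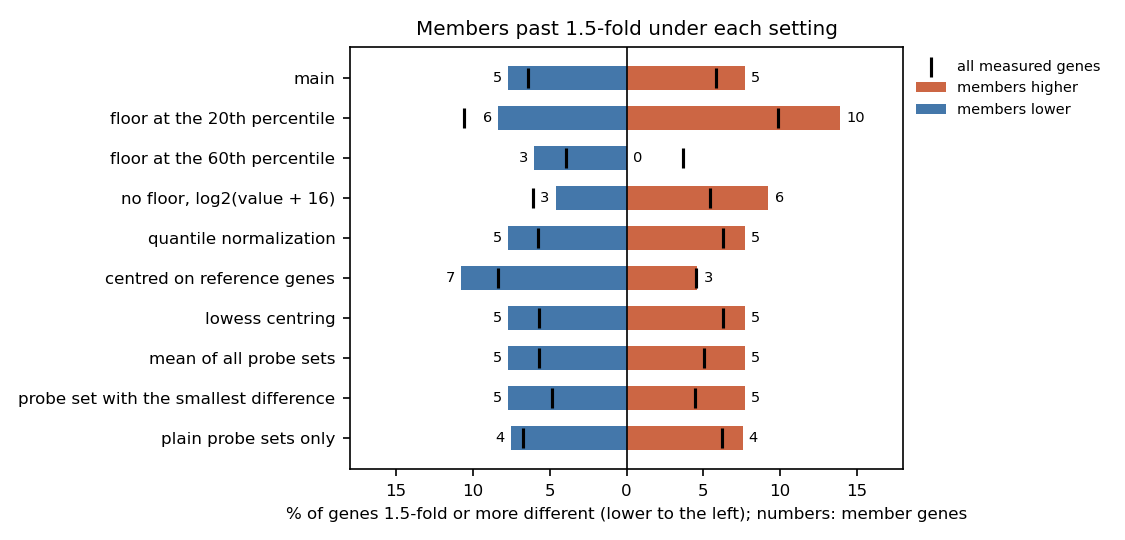
Share of measured genes 1.5-fold or more different under the main setting and 9 alternatives (horizontal axis, percent, with lower to the left in blue and higher to the right in orange) for the interferon genes, whose counts stand at the bars. Black ticks mark the share of all measured genes. The higher count runs from 0 to 10 and the lower count from 3 to 7.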

How the data were processed

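The values are deposited intensities on a linear scale, for 45037 probe sets on 2 arrays. How the authors summarised and scaled them, and on which genome build, is not given in the sources used here. Per the labels' protocols, biotinylated cRNA was made from 10 µg total RNA for an Affymetrix array. Trimmed means, without 2% at each end, were 99.6 on both arrays, so any difference in total RNA would be hidden. The 34945 probe sets with 1 gene symbol in the platform annotation of 2016 were used. All 81 member gene IDs matched the RefSeq table (GRCm38.p6), with 0 symbols changed, and 15 probe sets naming a member beside other genes were left out. Genes with more than 1 measured probe set took that of highest mean log2 intensity. With 1 array per diet only sizes were compared, and nothing was tested across animals. Precision is limited by having 1 array each. Members and lists were chosen with earlier results of these data known. Named genes were all measured members by role, with every probe set for those 1.5-fold different or with 3 or more, and genes of the wider pathway list at 1.5-fold or more. Promoters were to come from the 4 members of largest difference in each direction that cleared both floors and had no measured probe set pointing the other way, whatever the size. Of these Oas1a and Oasl2 are printed, and the 30-base windows of other genes were added after the matches were seen. Alternatives varied the floor, the scaling and the choice of probe set. The gene summary was tested on simulated data, with 2-fold changes in genes of intensity above 100 and noise smaller than the probe SDs given above. That test does not cover the weaker genes. Python 3.11.15, numpy 2.4.6, pandas 2.3.3, scipy 1.17.1 and statsmodels 0.14.6 were used.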

Additional observations from a re-analysis of the deposited data

How the results depend on the processing

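No paired analysis was possible because each diet had 1 array. The median difference of the measured interferon genes was -0.02 as reported, -0.068 with the floor at the 60th percentile and -0.0816 after centring on reference genes, which moved the median of all measured genes to -0.09. The number of genes 1.5-fold or more higher was 5 as reported, 10 with the floor at the 20th percentile, 0 with it at the 60th and 3 after centring on reference genes. The shares of all measured genes were 5.82%, 9.86%, 3.65% and 4.53% in the same order. The number lower was 5 as reported, 3 with the floor at the 60th percentile and 3 with log2(value + 16) in place of a floor. With the higher floor, 50 genes were measured in place of 65. Both counts stayed within 1.5 times of the reported ones under quantile normalization, lowess centring, the mean of all probe sets, the probe set of smallest difference and plain probe sets only. Of the 65 genes 53 kept their direction in all 9 alternatives or as many as measured them, 31 lower and 22 higher, and no gene 1.5-fold different changed direction. All alternatives re-read the same arrays. For a gene with 1 measured probe set, those that vary the probe set return the same value or leave the gene out. Kept directions are therefore not independent support. The changes of sign were in Gbp6, Gbp7, Ifi209, Ifi27l2a, Ifit3, Ifitm7, Ifnar2, Iigp1, Irf4, Stat2, Stat3 and Stat5b. Oas1e, 1.10 as reported, was bounded at 0.22 or more with the floor at the 60th percentile, above its chow value.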

Other observations

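Some probe sets name several genes, and their values belong to no single one of those genes. Some of the genes, such as Ifi203 and Ifna1, also have probe sets of their own, given above. A probe set shared by the PYHIN genes Ifi205 and Ifi211 was at 542.4 with chow and 315 with high-fat diet, a difference of -0.78. Another, shared by Ifi204, Ifi205, Ifi211 and Mndal, was at 265.8 and 199.4, a difference of -0.41. Of 3 probe sets shared by Ifi203 and its relatives, 1 was at 149.9 and 145.5, and the others were weaker, at 38.5 and 47.4 and at 29 and 32. A probe set shared by Tgtp1 and Tgtp2, GTPases of the same family as Igtp, was at 161.9 and 165.6. One shared by Isg15, the ubiquitin-like interferon product, and a predicted gene was at 53.7 and 58.6. A pair of probe sets shared by 9 alpha interferon genes differed in opposite directions, at 167.1 and 215.1 and at 146.8 and 132.6. One shared by Ifnz and predicted genes was at 65.4 and 52.4, a difference of -0.32. Apart from the one of Ifi30 and Pik3r2 given above, the rest were below both floors.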
